A study of Mus musculus with 12 samples.

Results

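The genes described here encode receptor tyrosine kinases of the ErbB and Met families and ligands of the epidermal growth factor (EGF) family. The 8 genes were the receptors Egfr, Erbb2, Erbb3 and Met and the ligands Areg, Ereg, Hbegf and Tgfa. They were chosen by name, every probe set annotated to one of them was taken, and the probe set with the highest mean log2 intensity over the 12 arrays stood for the gene. Of the 8 genes 7 were measured, with 15 probe sets, among 12393 genes measured in all. The annotation paired Areg, the gene of amphiregulin, with no probe set, so Areg was not analysed here.

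EGF family ligands are made as membrane proteins, released by surface proteases, and bring ErbB receptors together in pairs. Erbb2 has no known ligand and Erbb3 has a weak kinase, so both signal mainly as partners of other ErbB receptors, Erbb3 chiefly after binding neuregulins. Met is the receptor of hepatocyte growth factor (Hgf), and both systems are known for driving hepatocyte growth in liver development and regeneration.

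The cells were bipotential mouse embryonic liver (BMEL) cells, liver progenitor lines able to form hepatocytes and bile duct cells, from dpc14 liver of the cross CBA/J x C57Bl/6J. There were 2 lines, 9A1 and 14B3, and 3 cultures, namely basal, aggregates for 5 days, and Matrigel, a basement membrane gel, for 10 days, except that Matrigel_14B3 replicate 1 was labelled 5 days. No age was given for basal cultures, no line carried a transgene or a drug per the labels, and each line stands for its own isolate only. Each of the 6 groups had 2 arrays, called biological replicates, so that a culture had 4 arrays and a line 6. How replicate cultures were kept apart was not given, so p-values measure the spread between these samples, which may be technical.

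Total RNA was measured on Affymetrix mouse 430A arrays, on which a probe set of short probes reports 1 transcript region as a signal intensity. Each array read 22690 probe sets, with a median intensity of 268 to 281. Precision is limited by having few arrays. Values below are log2 intensities, and levels were not compared between genes, since probes differ. As a guide to low signal, 22 genes known mainly from other tissues ran from 4.30 to 9.69 over the arrays with a median of 6.99. A level in that range may be background, and a fold from it may be too small. The top of the range came from Mbp alone, at 9.54 to 9.69 in basal, 8.64 to 9.25 in aggregate and 8.93 to 9.25 in Matrigel arrays. The next highest guide gene, Sftpb, reached 9.29, so levels above 9.29 lie within the range through Mbp only. RNA came from whole cultures, so fewer cells of a type and less RNA per cell cannot be told apart. Changes are called at an adjusted p below 0.05 (limma, Benjamini-Hochberg over all 12393 genes).

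The labelled cell type was checked against markers. Of 9 hepatic markers the keratin genes Krt8 (13.6 to 13.93 over the arrays) and Krt18 (11.98 to 13.72) lay above the low range in every culture. So did the transcription factor gene Hnf4a (11.32 to 12.68). In basal culture albumin (7.71 to 8.45), Dlk1 (7.14 to 7.51) and Ttr (8.6 to 9.19) lay within it, as did Apoa1 (8.61 to 9.79) and Afp (7.9 to 10.53) in part. Dlk1 lay within it in aggregates too (6.87 to 8.1) and in part in Matrigel (7.74 to 9.73), and Foxa2 in part in aggregates (8.65 to 9.89). In aggregates 5 of the 9 rose and 2 fell, the keratin gene Krt18 (-1.32) and the transcription factor gene Foxa2 (-1.51), and in Matrigel 6 rose. Of all genes 22.9% rose and 23.4% fell in aggregates, and 14.1% rose in Matrigel. Of 5 bile duct markers Krt19 (13.08 to 13.79) was above the low range throughout, Sox9 (6.85 to 8.09) lay within it throughout, and Epcam lay within it in basal culture (7.49 to 7.94) and rose by 5.00 and 4.74 in aggregates and Matrigel. In aggregates 2 of the 5 were called higher and 2 lower, with a median of -0.27 against 0.10 for all genes. In Matrigel 2 were higher and 0 lower (1 lower at an unadjusted p under 0.05 in limma). Krt7 read 11.32 to 12.82 in basal, 9.3 to 10.8 in aggregate and 10.1 to 12.03 in Matrigel arrays. Cftr read 5.16 to 5.53, 6.4 to 9.52 and 6.74 to 8.47. The summed linear signal of 9 hepatic markers was 31665 to 35844 in basal, 56926 to 80196 in aggregate and 60957 to 69097 in Matrigel arrays. The 8 endothelial markers ran from 5.27 to 8.87, the summed signal of 7 haematopoietic markers from 1422 to 1803 in basal, 2020 to 4667 in aggregate and 1718 to 2672 in Matrigel arrays, with the leukocyte marker Ptprc at 6.52 at most. The 8 stellate cell and fibroblast markers summed to 1458 to 1621 in basal, 1524 to 1763 in aggregate and 1429 to 3866 in Matrigel arrays. Of the 7 haematopoietic markers 3 were called higher in aggregates and 2 in Matrigel. Of the 8 stellate cell and fibroblast markers 1 and 2 were higher, and of the 8 endothelial markers 0 and 1. Between the lines 2 endothelial markers were higher in 14B3, as were 2.57% of all genes. The macrophage receptor gene Csf1r rose in aggregates (log2 change 1.48) and the smooth muscle actin gene Acta2 in Matrigel (1.04), and both were lower in 14B3 than in 9A1 (-1.13 and -0.77). Of the 5 bile duct markers 3 were also lower in 14B3, Cftr, Krt7 and Sox9 (median -0.57 against 0.04 for all genes), but just 1 without basal_9A1 replicate 1, either basal_14B3 array, aggregate_14B3 replicate 2, Matrigel_9A1 replicate 1 or Matrigel_14B3 replicate 2. Of all genes 3.45% were called lower in 14B3. The part of these markers in the changes below was not tested.

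The promoters of the called receptor genes that RefSeq tabulates for GRCm38.p6 are shown first, since Erbb2 rose and Met fell in the same cultures. Of the 8 genes 5 had a window of 250 bases before to 50 after the start, among 32851 windows of 27025 genes. Capitals mark the motifs found among the 5 searched on both strands, namely the GC box GGGCGG, the TATA box TATAAA, the CCAAT box, the AP-1 site TGANTCA and the E-box CACGTG.
Erbb2, chr11:98412234-98412533, plus strand: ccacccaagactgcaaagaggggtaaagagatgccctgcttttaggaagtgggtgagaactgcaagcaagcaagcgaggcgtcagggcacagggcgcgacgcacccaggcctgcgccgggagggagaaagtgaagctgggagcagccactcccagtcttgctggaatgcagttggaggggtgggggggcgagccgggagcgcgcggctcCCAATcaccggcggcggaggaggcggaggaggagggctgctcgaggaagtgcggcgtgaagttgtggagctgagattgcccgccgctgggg
Met, chr6:17463707-17464006, plus strand: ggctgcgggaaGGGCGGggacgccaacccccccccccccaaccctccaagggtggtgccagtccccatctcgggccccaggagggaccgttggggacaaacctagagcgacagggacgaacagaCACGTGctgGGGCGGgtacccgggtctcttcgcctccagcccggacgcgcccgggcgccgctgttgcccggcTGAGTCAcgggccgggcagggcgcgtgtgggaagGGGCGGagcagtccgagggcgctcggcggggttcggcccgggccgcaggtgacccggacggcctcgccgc
The Erbb2 window was 66.0% G or C and held 1 CCAAT box, 41 bases before the start, a motif in 37.4% of all windows. The Met window was 75.7% G or C, against a median of 52.7% over all windows. It held GC boxes 239, 117 and 20 bases before the start, a motif found in 35.7% of windows, an AP-1 site 54 bases before it (7.8% of windows) and an E-box 126 bases before it (7.2%). The Met gene begins at 17463349, before its window opens, so the start counted from here lies inside the gene. The motifs are letter matches and describe the windows only.

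Aggregate and Matrigel cultures were compared with basal culture to ask how the cells' growth factor receptors and ligands differ once they leave basal conditions. In both, the partner receptors Erbb3 and Erbb2 rose while Met and the ligand Ereg fell. In aggregates Erbb3 rose 16.5-fold and Erbb2 2.10-fold, and in Matrigel 8.56-fold and 1.61-fold. Egfr and Tgfa, by their brightest probe sets, did not pass in any comparison. Of the 7 genes measured 4 were called between aggregate and basal culture, 2 higher and 2 lower, where 46.3% of all genes were called (22.9% higher, 23.4% lower), so the share called is near the background. Between Matrigel and basal culture the same 4 genes were called in the same directions, against 28.4% of all genes (14.1% higher, 14.3% lower). Both comparisons use the same basal arrays.

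Erbb3 (Entrez Gene 13867), the neuregulin receptor that recruits phosphoinositide 3-kinase, changed most of the 7 genes. Its basal levels were 7.0 and 7.42 in 9A1 and 7.24 and 7.45 in 14B3. The aggregate levels were 11.42 and 11.42 in 9A1 and 11.39 and 11.04 in 14B3. In Matrigel they were 10.46 and 10.26 in 9A1 and 10.30 and 10.49 in 14B3. Every aggregate array lay above every Matrigel array, and every Matrigel array far above every basal array, whose levels fall in the low range. The change from basal was 4.04 ± 0.13 in aggregates (SE, 4 against 4 arrays, limma adjusted p = 4.43e-10) and 3.10 ± 0.13 in Matrigel (adjusted p = 9.45e-09). Within the lines it was 4.21 in 9A1 and 3.87 in 14B3 in aggregates, and 3.15 and 3.04 in Matrigel.

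The second Erbb3 probe set, 1452482_at, kept the same order of cultures with a smaller span. All of its levels lay within the low range. It read 7.73, 7.77, 7.91 and 8.05 in basal, 8.72, 8.78, 8.76 and 8.63 in aggregate and 8.26, 8.22, 8.06 and 8.34 in Matrigel arrays, each time 9A1 before 14B3. Its basal and aggregate arrays did not overlap, and its highest basal and lowest Matrigel arrays lay side by side. It rose by 0.86 in aggregates (adjusted p = 1.93e-05 over all 20380 probe sets) and by 0.36 in Matrigel (adjusted p = 0.0169). The Matrigel call of this probe set ended without basal_9A1 replicate 1 (0.0643), basal_14B3 replicate 1 (0.0754) or Matrigel_14B3 replicate 2 (0.0656). The size of the Erbb3 change thus rests on the probe set: the mean of both gave 2.45 in aggregates and 1.73 in Matrigel.

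Erbb2 (Entrez Gene 13866), the ligandless receptor that pairs with Erbb3, had 1 probe set. Its basal levels were 8.92 and 8.94 in 9A1 and 9.00 and 8.94 in 14B3. In aggregates they were 9.93 and 10.16 in 9A1 and 9.95 and 10.03 in 14B3, and in Matrigel 9.47 and 9.52 in 9A1 and 9.83 and 9.72 in 14B3. The basal arrays were close together and below all others, and the Matrigel arrays lay between basal and aggregate with no overlap. The basal levels and both 9A1 Matrigel levels (9.47 and 9.52) lay within the low range, these Matrigel levels through the guide gene Mbp only. Erbb2 rose by 1.07 ± 0.09 in aggregates (SE, adjusted p = 1.34e-06) and by 0.69 ± 0.09 in Matrigel (adjusted p = 0.000161), with 1.11 and 0.56 in 9A1 and 1.02 and 0.81 in 14B3.

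Met (Entrez Gene 17295), the Hgf receptor, had 1 probe set and fell. Its basal levels were 9.21 and 9.28 in 9A1 and 9.46 and 9.23 in 14B3, its aggregate levels 8.94 and 8.72 in 9A1 and 8.93 and 8.61 in 14B3. In Matrigel it read 8.99 and 8.47 in 9A1 and 9.00 and 8.45 in 14B3. All basal arrays lay above all others, the aggregate and Matrigel arrays overlapped, and in each of these cultures the replicate 1 arrays of both lines lay above the replicate 2 arrays. All of its levels lay within the low range. Met fell by 0.50 ± 0.15 in aggregates (SE, 1.41-fold lower, limma adjusted p = 0.0192) and by 0.57 ± 0.15 in Matrigel (1.48-fold lower, adjusted p = 0.0156). These calls depend on single arrays. The aggregate call ended without aggregate_14B3 replicate 2 (0.0758), basal_14B3 replicate 1 (0.0747), aggregate_9A1 replicate 2 (0.0672) or basal_9A1 replicate 2 (0.0533), and the Matrigel call without basal_14B3 replicate 1 (0.0671), Matrigel_9A1 replicate 2 (0.0653) or Matrigel_14B3 replicate 2 (0.0648). Fitted in 1 line alone, Met passed in neither line, and every one of these fits kept the fall. With the replicate block inside lines the change within each line passed, in aggregates (adjusted p = 0.0478 in 9A1 and 0.0117 in 14B3) and in Matrigel (0.0327 and 0.0144).

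Egfr (Entrez Gene 13649), the receptor of all the EGF family ligands here, was read by 5 probe sets that did not move together. The brightest, 1460420_a_at, read 10.01, 10.09, 9.87 and 10.07 in basal, 10.05, 10.06, 10.05 and 10.21 in aggregate and 10.15, 10.18, 10.05 and 10.45 in Matrigel arrays. The 3 cultures overlapped. The change was 0.08 in aggregates (95% interval -0.15 to 0.32, limma adjusted p = 0.551) and 0.20 in Matrigel (-0.04 to 0.44, adjusted p = 0.224), neither called.

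The dimmer Egfr probe sets lay between 7.13 and 8.97, all within the low range. Probe set 1424932_at read 8.53, 8.26, 7.74 and 7.74 in basal, 7.78, 7.13, 7.59 and 7.59 in aggregate and 8.97, 8.10, 8.55 and 8.03 in Matrigel arrays. Its aggregate arrays lay lowest, below every Matrigel array but overlapping the basal arrays. It was lower in aggregates than in basal culture (-0.54, adjusted p = 0.0486), a call that ended in 7 of the 12 fits that left out 1 array. Probe set 1432647_at was higher there (0.38, adjusted p = 0.0344), a call that ended in 6 of these fits. Probe sets 1451530_at (-0.30, adjusted p = 0.106) and 1454313_at (0.00, adjusted p = 0.995) had no call, the first of them passing without either Matrigel_9A1 array (0.0400 each). In Matrigel against basal culture 1424932_at was at 0.34 (adjusted p = 0.271), and passed without Matrigel_9A1 replicate 2 (0.56, adjusted p = 0.0496). The direction of Egfr in aggregates therefore differs between probe sets of the gene.

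**Figure D1:**
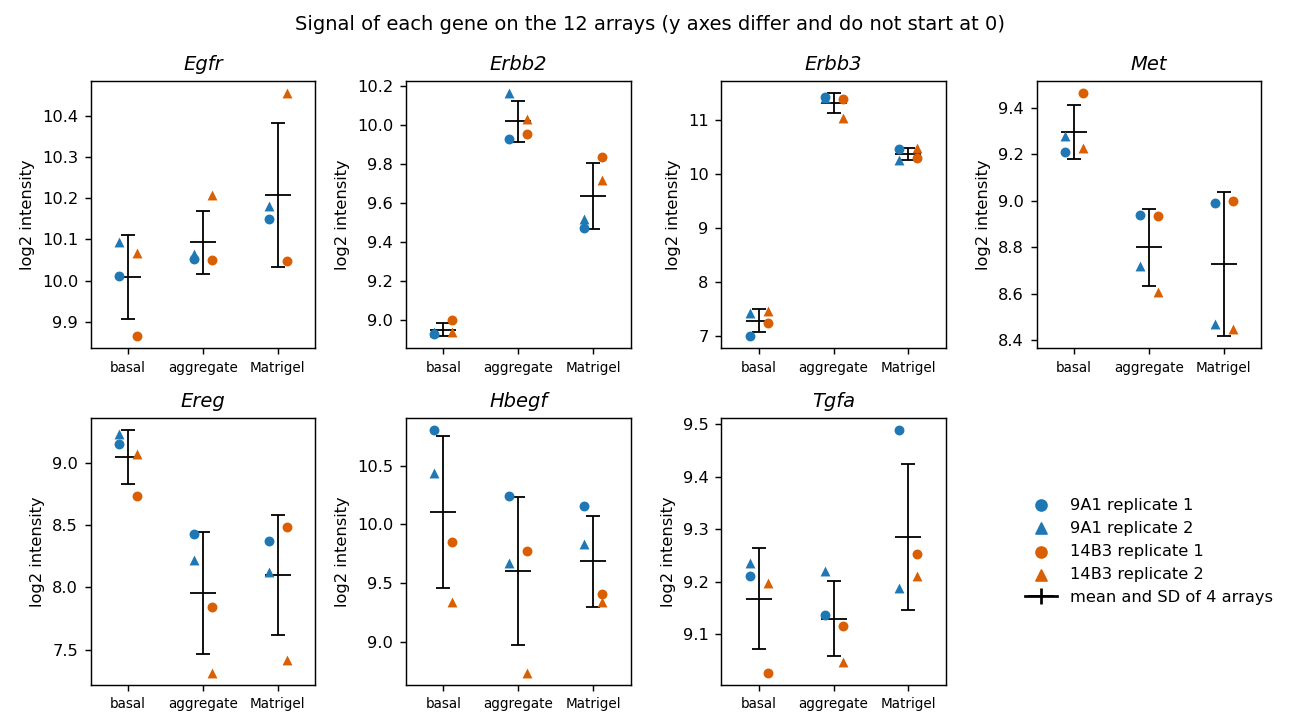
Log2 signal intensity of each gene's brightest probe set on the 12 arrays, by culture (x axis); colour gives the line, symbol the replicate number, and black bars the mean and SD of the 4 arrays of a culture. Erbb3 and Erbb2 are lowest and Met and Ereg highest in the 4 basal arrays with no overlap, while the cultures overlap for Hbegf, Egfr and Tgfa.

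Among the ligands Ereg (Entrez Gene 13874), the gene of epiregulin, which binds Egfr and Erbb4, fell in both cultures. Its basal levels were 9.15 and 9.23 in 9A1 and 8.73 and 9.07 in 14B3. It read 8.43 and 8.22 in 9A1 and 7.84 and 7.32 in 14B3 in aggregates, and 8.37 and 8.13 in 9A1 and 8.48 and 7.41 in 14B3 in Matrigel. All basal arrays lay above all others, the aggregate and Matrigel arrays overlapped, and the 14B3 replicate 2 arrays were the lowest of each culture but basal. All levels lay within the low range. Ereg fell by 1.09 ± 0.21 in aggregates (SE, 2.14-fold lower, limma adjusted p = 0.000792) and by 0.95 ± 0.21 in Matrigel (1.93-fold lower, adjusted p = 0.00435). In 9A1 the changes were -0.87 and -0.94 and in 14B3 -1.32 and -0.95. Fitted on the 14B3 arrays alone, the Matrigel change did not pass (adjusted p = 0.0682).

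Hbegf (Entrez Gene 15200), the gene of heparin-binding EGF-like growth factor, which binds Egfr and Erbb4, differed between the lines. Its brighter probe set, 1418350_at, read 10.81 and 10.44 in 9A1 and 9.85 and 9.34 in 14B3 in basal culture. In aggregates it read 10.24 and 9.67 in 9A1 and 9.77 and 8.74 in 14B3, and in Matrigel 10.16 and 9.83 in 9A1 and 9.40 and 9.34 in 14B3. The 3 cultures overlapped, and replicate 1 read higher than replicate 2 in each of the 6 groups. The levels 9.34 in basal 14B3, 9.67 and 8.74 in aggregates and 9.40 and 9.34 in Matrigel lay within the low range. The change was -0.50 in aggregates (95% interval -0.98 to -0.03, limma adjusted p = 0.0806) and -0.42 in Matrigel (-0.90 to 0.05, adjusted p = 0.193), neither called. When replicate number was added to the fit as a block inside each line, both passed (adjusted p = 0.00947 and 0.0339), as did both changes within 9A1 (0.0166 and 0.0388) but neither within 14B3 (0.198 and 0.499). The aggregate change also passed without aggregate_9A1 replicate 1 (0.0449, log2 change -0.65) or aggregate_14B3 replicate 1 (0.00576, log2 change -0.76) and in 9A1 alone (0.0405, log2 change -0.67). It was -0.25 without aggregate_14B3 replicate 2 (adjusted p = 0.336) and -0.34 in 14B3 alone (adjusted p = 0.468). The second probe set, 1418349_at, was at -0.17 in aggregates (adjusted p = 0.544) and -0.31 in Matrigel (adjusted p = 0.346).

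Tgfa (Entrez Gene 21802), the gene of transforming growth factor alpha, a ligand of Egfr, had no call in any comparison, and all of its levels lay within the low range. Its brightest probe set, 1421943_at, read 9.21, 9.24, 9.03 and 9.20 in basal, 9.14, 9.22, 9.12 and 9.05 in aggregate and 9.49, 9.19, 9.25 and 9.21 in Matrigel arrays. The 3 cultures overlapped, with Matrigel_9A1 replicate 1 the highest. The change was -0.04 in aggregates (95% interval -0.25 to 0.17) and 0.12 in Matrigel (-0.10 to 0.33). The other probe sets, 1421942_s_at and 1450421_at, were at -0.15 and -0.03 in aggregates and at 0.01 each in Matrigel, all without a call.

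**Figure D2:**
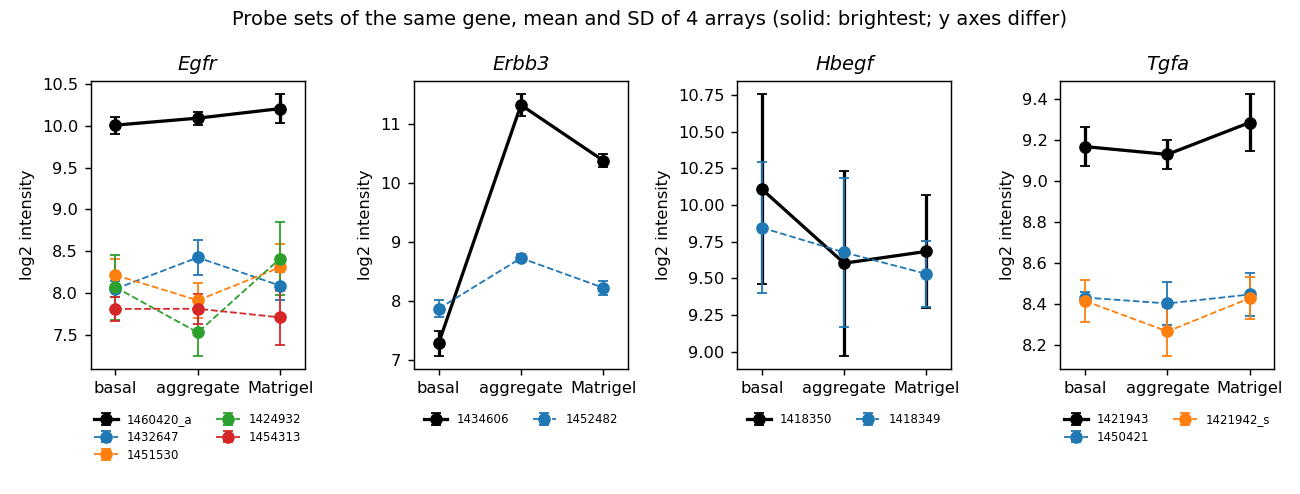
Mean log2 signal intensity of every probe set of the genes with more than 1, by culture, with bars for the SD of 4 arrays; the solid line is the brightest probe set and dashed lines are the others. The 2 Erbb3 probe sets share a shape with spans of 4.04 and 0.86 between basal and aggregate, whereas the Egfr probe sets go different ways.

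Next, Matrigel was compared with aggregates. Days in culture differ between them, so gel and time cannot be told apart. Of the 7 genes 2 were called, Erbb3 and Erbb2, both lower in Matrigel, where 26.7% of all genes were called (13.9% higher, 12.7% lower). Erbb3 was lower by a log2 change of -0.94 ± 0.13 (SE, 1.92-fold, limma adjusted p = 0.000221), with -1.06 in 9A1 and -0.82 in 14B3, and its second probe set was at -0.50 (adjusted p = 0.00278). Erbb2 was at -0.38 ± 0.09 (SE, 1.30-fold lower, adjusted p = 0.00882), with -0.55 in 9A1 (adjusted p = 0.0132) and -0.22 in 14B3 (adjusted p = 0.319, no call), where 15.6% and 13% of all genes were called. Whether the lines differ in this change was not tested.

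Met was at -0.07 (95% interval -0.41 to 0.26), Ereg at 0.15 (-0.30 to 0.60), Hbegf at 0.08 (-0.40 to 0.56), Tgfa at 0.16 (-0.06 to 0.37) and the brightest Egfr probe set at 0.11 (-0.12 to 0.35) between Matrigel and aggregates, none called. For these 5 the intervals allow differences in either direction. Of the dim Egfr probe sets 1424932_at was higher in Matrigel (0.89, adjusted p = 0.00852), a call that held without each array in turn. With the replicate block within lines 1451530_at was also higher (0.40, adjusted p = 0.0341, against 0.0621 without the block) and 1432647_at lower (-0.34, adjusted p = 0.0233, against 0.0799).

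The lines were compared over the 3 cultures to ask whether independent isolates share these levels. Of the 7 genes 1 was called, Hbegf, lower in 14B3, where 6.01% of all genes were called (2.57% higher, 3.45% lower). Hbegf was at -0.79 ± 0.18 (SE, 6 against 6 arrays, 1.72-fold lower in 14B3, limma adjusted p = 0.0227), with -1.03 in basal, -0.70 in aggregate and -0.63 in Matrigel culture, of which the basal one passed with the block inside lines (adjusted p = 0.0181). The lines did not overlap in basal or Matrigel culture and overlapped in aggregates. Most 14B3 levels of Hbegf lay within the low range, so the fold may be too small. The call ended without basal_14B3 replicate 2 (0.0750), basal_9A1 replicate 1 (0.0694), aggregate_9A1 replicate 1 (0.0598), Matrigel_9A1 replicate 1 (0.0693) or Matrigel_14B3 replicate 2 (0.0526), and with the mean of both probe sets (-0.61, adjusted p = 0.0637). The second Hbegf probe set was at -0.44 (adjusted p = 0.223, and 0.0314 once the block inside lines was added).

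Ereg was at -0.44 in 14B3 against 9A1 (95% interval -0.81 to -0.08, adjusted p = 0.181). Without Matrigel_14B3 replicate 1, the array labelled 5 days, it was -0.62 (adjusted p = 0.0137), and without Matrigel_14B3 replicate 2 it was -0.27 (adjusted p = 0.306). Erbb3 (-0.01, interval -0.23 to 0.22), Erbb2 (0.09, -0.08 to 0.25), Met (0.01, -0.26 to 0.29), Egfr (0.02, -0.17 to 0.22) and Tgfa (-0.10, -0.28 to 0.07) had no call. Whether the response to culture differs between lines was tested as an interaction in limma for the 7 genes in both cultures, and 0 of 14 passed (0 at an unadjusted p under 0.05). Of all genes 0.468% were called for the aggregate and 0.686% for the Matrigel response. The intervals are wide, from -0.89 to 0.21 for Erbb3 and from -1.36 to 0.44 for Ereg in aggregates.

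**Figure D3:**
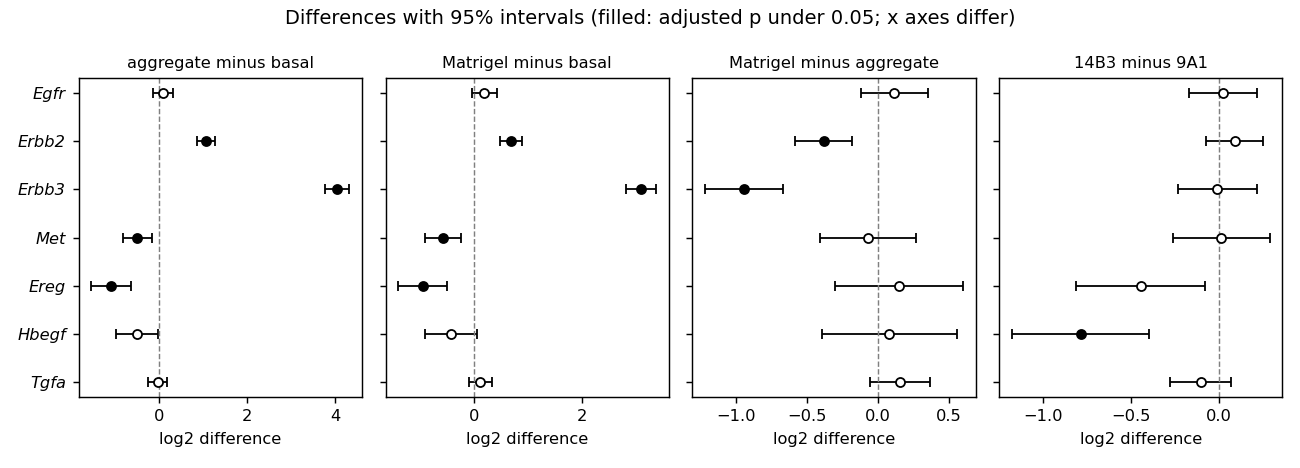
Log2 differences with 95% intervals of the 7 measured genes in the 4 comparisons, filled where the limma adjusted p is below 0.05; the x axes differ. Erbb3 stands at 4.04 and 3.10 against basal culture, and Hbegf is the single gene called between the lines.

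The rest of the pathway was taken from lists of ligands, receptors, releasing enzymes, inhibitors, downstream proteins and target genes. For the counts that follow, 13.9% of all genes were called higher and 12.7% lower in Matrigel than in aggregates. Between the lines 2.57% were higher and 3.45% lower in 14B3. Against basal culture 22.9% were called higher and 23.4% lower in aggregates, and 14.1% and 14.3% in Matrigel. Of 7 other ErbB and Met family ligands 2 rose in aggregates, near that background, and 0 fell at an adjusted or unadjusted p under 0.05 in limma. Mst1, the gene of macrophage-stimulating protein, rose 2.73-fold (1.45, adjusted p = 1.97e-05). Nrg4, a neuregulin that binds Erbb4, was at 0.35 (adjusted p = 0.0429), a call that ended in 7 of the 12 fits without 1 array. In Matrigel 1 rose, Btc, the gene of the Egfr and Erbb4 ligand betacellulin, at 0.59 (adjusted p = 0.0173). This call ended without basal_9A1 replicate 1 (0.0650), basal_14B3 replicate 1 (0.0848), Matrigel_9A1 replicate 1 (0.0564) or Matrigel_14B3 replicate 1 (0.0670), and 2 ligands rose without basal_14B3 replicate 2. Set against aggregates, Matrigel cultures had more Btc (0.76, adjusted p = 0.00467) and less Mst1 (-1.12, adjusted p = 0.000543), with 2 ligands lower without aggregate_14B3 replicate 1. Mst1 was also higher in 14B3 than in 9A1 (1.43, adjusted p = 7.33e-05), with 2 ligands higher under a replicate block shared by the lines.

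Of 4 other receptors and partners 1 rose in aggregates (2 with a shared replicate block) and 1 fell. Mst1r, the receptor of macrophage-stimulating protein, rose by 0.58 (adjusted p = 0.00526) from a basal mean of 6.83, within the low range. In Matrigel it was at 0.43 (adjusted p = 0.0413), a call that ended in 8 of the 12 fits without 1 array. Cd44, a hyaluronan receptor whose isoforms can assist Met, was 7.56-fold lower in aggregates (-2.92, adjusted p = 6.39e-06) and 4.41-fold higher in Matrigel than in aggregates (2.14, adjusted p = 0.000317). In Matrigel against basal culture it was at -0.78 (adjusted p = 0.0772), a fall that passed with the replicate block and without either aggregate_9A1 array. It was lower in 14B3 (-1.0, adjusted p = 0.0334), which ended in 8 of these fits. Mst1 and Mst1r, a ligand and its receptor, thus both rose in aggregates.

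Genes of ligand release and Hgf activation moved both ways in aggregates: 7 of 18 rose and 8 fell, with a median of 0.02 against 0.10 for all genes, of which 22.9% rose and 23.4% fell. Without basal_9A1 replicate 2 or aggregate_9A1 replicate 2 only 5 fell. Spint1, an inhibitor of the protease that activates Hgf, rose 9.31-fold (3.22, adjusted p = 1.78e-09). Hgfac, that protease, rose 4.14-fold (2.05, adjusted p = 2.68e-07). Cd9, a tetraspanin that associates with the membrane form of Hbegf, was 8.27-fold lower (-3.05, adjusted p = 2.56e-07).

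In Matrigel 5 of these 18 rose, Spint1 (2.95), Hgfac (1.44), its inhibitor Spint2 (1.20), Adam10 (0.49) and Plat (0.41), and Cd9 (-0.87) and Adam9 (-0.34) fell. Just 1 fell without basal_9A1 replicate 1 or 2, basal_14B3 replicate 1 or Matrigel_9A1 replicate 2. Adam10 and Adam9 are membrane proteases of the family that sheds EGF ligands, and Plat is the tissue plasminogen activator. Beside the counts of these 18 against aggregates, 13.9% of all genes were higher in Matrigel and 12.7% lower. Against aggregates 4 were higher in Matrigel, Cd9 (2.18), Plat (1.85), the urokinase receptor gene Plaur (1.34) and Adam9 (0.42), and 2 lower, Hgfac (-0.61) and Adam15 (-0.31), with 4 lower under the replicate block and 1 lower without either basal_9A1 array, either aggregate_9A1 array, aggregate_14B3 replicate 2 or Matrigel_14B3 replicate 2. In 14B3 against 9A1 Plat (-0.70), Adam9 (-0.57) and Adam12 (-0.45) were lower, Adam12 not without basal_14B3 replicate 1 (adjusted p = 0.0510). The main protease of Hbegf, Ereg and Tgfa release, Adam17, was at -0.32 in aggregates (adjusted p = 0.0445).

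Of 17 receptor inhibitors and degradation genes 3 rose and 6 fell in aggregates (median 0.03 against 0.10 for all genes, of which 22.9% rose and 23.4% fell), with 5 higher when the lines shared 1 replicate block. Ptprj, a phosphatase that acts on Met and Egfr, rose by 1.46, the Sprouty gene Spry4 by 0.92 and Sh3kbp1, an adaptor in receptor uptake, by 0.70. Spry2 (-0.90, adjusted p = 0.00314) and Spry1 (-0.65, adjusted p = 0.00137), inhibitors of the same Sprouty family, fell. In Matrigel Ptprj (1.22), Errfi1 (0.92), which binds and blocks ErbB kinases, Spry4 (0.56) and Sh3kbp1 (0.49) rose, 4 of 17 (2 without Matrigel_9A1 replicate 1), and 0 fell (1 at an unadjusted p under 0.05, limma; 1 with the replicate block and without either aggregate_14B3 array). Spry4 passed there except without basal_9A1 replicate 1 (0.0594), basal_14B3 replicate 1 (0.0878), Matrigel_9A1 replicate 1 (0.0691) or Matrigel_14B3 replicate 1 (0.0631).

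Matrigel cultures had more Spry2 (0.98), Socs5 (0.73), Spry1 (0.67) and Ptpn1 (0.59) than aggregates and less Socs4 (-0.29). Of all genes 13.9% were higher in Matrigel and 12.7% lower. In 10 of the 12 fits without 1 array 0 of the 17 were lower, and 2 were without aggregate_14B3 replicate 2. Socs5 and Socs4 are suppressors of cytokine signalling known to act on Egfr, and Ptpn1 is a phosphatase of receptor kinases. Spry1 (-0.66), Sh3kbp1 (-0.55) and Rnf41 (-0.29), a ubiquitin ligase that targets Erbb3, were lower in 14B3 than in 9A1, as were 3.45% of all genes. The Rnf41 call ended in 11 of the 12 fits without 1 array.

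Downstream, 11 of 27 adaptors and kinases rose and 5 fell in aggregates, with a median of 0.20 against 0.10 for all genes, of which 22.9% rose and 23.4% fell. In Matrigel 8 rose and 1 fell, with a median of 0.03 against -0.04 for all genes, of which 14.1% rose and 14.3% fell. Stat3, a transcription factor activated by Egfr among others, rose by 1.14 and 0.76, and the MAP kinase kinase kinase gene Araf by 1.04 and 0.50. Grb7, an adaptor that binds ErbB receptors, rose by 0.86 (adjusted p = 3.82e-05) and 0.47 (adjusted p = 0.00685). The MAP kinase scaffold gene Ksr1 rose by 0.77 and 0.70, and the Ras gene Nras fell by 0.91 and 0.66. The others lower in aggregates were Ptpn11 (-0.55), Shc1 (-0.33), Pik3ca (-0.32) and Crk (-0.32), with 2 or 3 lower without any one of the basal arrays, either aggregate_9A1 array or aggregate_14B3 replicate 2.

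Between Matrigel and aggregates Rps6ka3 (0.63), Crk (0.42) and Ptpn11 (0.37) were higher, 1 of them without aggregate_9A1 replicate 2 or Matrigel_9A1 replicate 1. Araf (-0.53), Src (-0.43), Grb7 (-0.39), Stat3 (-0.37) and Stat5b (-0.31) were lower, with 2 or 3 lower whichever array was left out, except either basal_14B3 array or Matrigel_14B3 replicate 1. Rps6ka3, an ERK-activated kinase, passed except without aggregate_9A1 replicate 2 (0.0758), aggregate_14B3 replicate 2 (0.0703) or Matrigel_9A1 replicate 1 (0.0813). Between the lines 0 of the 27 passed in limma (3 higher and 3 lower at an unadjusted p under 0.05), with 1 lower under the block inside lines and 1 each way under the shared block.

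Among genes known to be induced by ERK signalling or to feed back on it, more fell than rose against basal culture. In aggregates 18 of 30 fell and 5 rose, with a median of -0.48 against 0.10 for all genes, of which 23.4% fell and 22.9% rose. The chromatin protein gene Hmga2 was 12.2-fold lower (-3.61, adjusted p = 1.22e-09), the cyclin gene Ccnd1 10.4-fold lower (-3.37, adjusted p = 7.02e-08) and the Ets factor gene Elk3 6.93-fold lower (-2.79, adjusted p = 2.92e-06). The immediate early genes Fos (2.12), Egr1 (1.23), Egr2 (0.35) and Ier2 (0.29) and the small Maf factor gene Maff (0.71) rose. In Matrigel 10 fell, Ccnd1 (-1.51), Hmga2 (-1.43) and the prostaglandin synthase gene Ptgs2 (-1.23) most, and Maff (0.62), Ier2 (0.48) and Egr2 (0.39) rose, with a median of -0.14 against -0.04 for all genes, of which 14.3% fell and 14.1% rose. With 1 replicate block shared by the lines 5 rose there.

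Against aggregates 14 of the 30 target genes were higher in Matrigel and 2 lower, with a median of 0.32 against -0.10 for all genes, of which 13.9% were higher and 12.7% lower. Hmga2 (2.18), Ccnd1 (1.86) and Elk3 (1.64) were higher, and Fos (-1.34) and Egr1 (-0.83) lower. Just 1 was lower without replicate 1 of either aggregate group or replicate 2 of either Matrigel group. In 14B3 Phlda2 (0.76), Ptgs2 (0.69) and Vegfa (0.42) were higher and Ccnd1 (-0.95) lower than in 9A1, with 4 lower under the replicate block, 2 without aggregate_9A1 replicate 2 and 3 without aggregate_14B3 replicate 1.

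**Figure D4:**
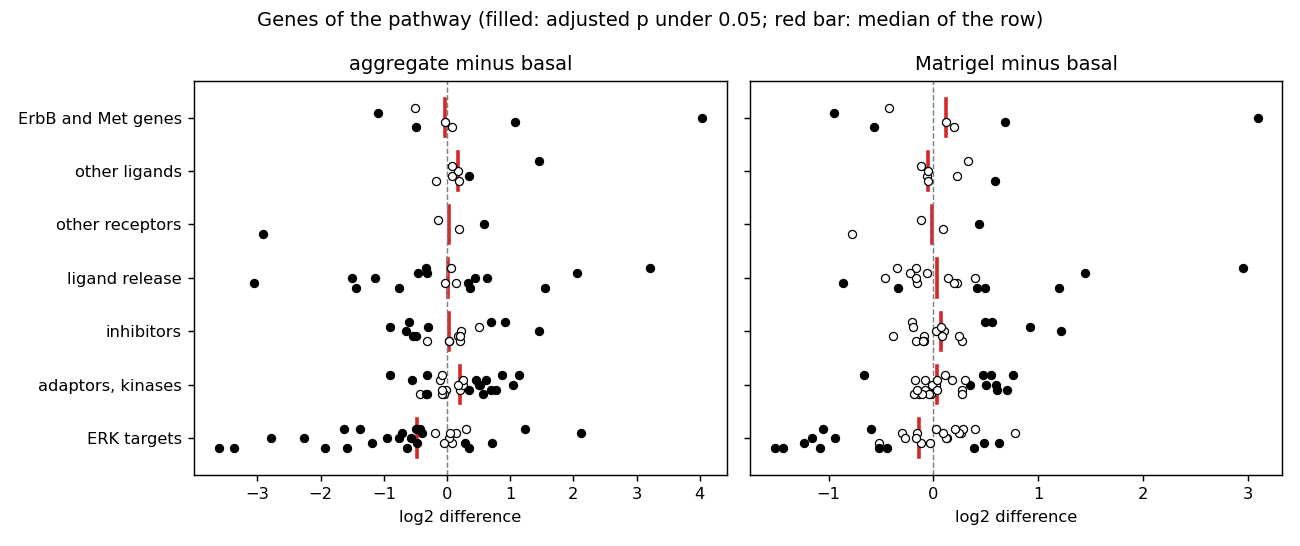
Log2 difference from basal culture for each measured gene of the ErbB and Met set and of 6 lists of other pathway genes (rows), in aggregates and in Matrigel; filled points have a limma adjusted p below 0.05 and red bars are medians. The ERK target row lies furthest left in aggregates, at a median of -0.48.

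For the 5 genes whose levels spanned at least 1 log2 unit over the 12 arrays, the genes of most similar profile were found by the root mean square (RMS) difference over the 12 arrays after each gene was centred on its mean. Nearest to Erbb2 were Suclg2, a succinyl-CoA ligase subunit (RMS 0.078), and the sirtuin gene Sirt7 (0.090), against an Erbb2 range of 1.24. Nearest to Erbb3 were the lipid droplet gene Cideb (0.266) and Ms4a10 (0.274), against a range of 4.43. Met lay nearest to the mitochondrial ribosomal protein gene Mrps18b (0.115) and the ubiquitin ligase gene Ubr4 (0.127), with a range of 1.01. Ereg lay nearest to the RNA-binding protein gene Grsf1 (0.240) and the nuclear import gene Tnpo1 (0.265), with a range of 1.91. Hbegf lay nearest to Uevld (0.245) and Tmco1 (0.272), with a range of 2.07. A small RMS is easier to reach for a gene of small range.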

How the data were processed

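Each deposited value is a linear signal intensity of 1 probe set. The authors used RMA in R 2.3.1, per the submitters' processing notes, and log2 was taken here. Names came from the platform's annotation: of 22690, 20380 carried 1 symbol (20351 with a gene ID in the gene table), 691 several, 1555 none and 64 were controls. Genes took their brightest probe set, with no filter on dim genes.

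A model of 6 group means was fitted to log2 intensities with limma 3.58.1 in R 4.3.3 (6 residual degrees of freedom, median residual SD 0.170), two-sided, with Benjamini-Hochberg adjustment over 12393 genes, or 20380 probe sets for dimmer probe sets. The fit was also run on simulated arrays for aggregate against basal (12393 genes, 50 changed per size). It found 34% of changes of 0.5, 98% of changes of 1 and of 2, and 90% of changes of -1. Of its calls 4.76% were wrong. Far fewer genes changed there than the 46.3% called on the measured arrays, and adjusted p-values depend on that share. These rates therefore do not carry over to the measured arrays. Differences between replicates 2 and 1 correlated over genes in all 15 pairs of groups (r = 0.10 to 0.64), a pairing seen in the data, so the replicate block is given where it changes a call. Named genes were the 8 members, up to 3 called genes with the largest changes per list and comparison, the 2 nearest profiles per member with a range of at least 1, and genes that a count of 5 or fewer singles out; others, such as Grb7 and Adam17, were chosen after their values were seen. Members and lists were chosen with earlier results of these data known. Figures used Python 3.11.15 and matplotlib 3.10.9.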

Additional observations from a re-analysis of the deposited data

Results flagged for a closer look

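In 2 of 45 groups of 4 arrays tested, 1 array stood apart from the other 3, and chance alone would set apart about 1 in 20 groups. Both were aggregate_14B3 replicate 2: at 10.2079 for the brightest Egfr probe set, above the others at 10.05 to 10.06, and at 11.0425 for the brightest Erbb3 probe set, below the others at 11.39 to 11.42. Leaving this array out changed the call of neither gene.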

How the results depend on the processing

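Each of the 4 comparisons and 2 tests of differing response was repeated leaving out each array, with the replicate block within lines or shared by lines, with quantile or median scaling, averaged probe sets per gene, all probe sets tested, an offset of 32, array weights, an intensity trend, genes above the median level (without Ereg, below it) and each line alone (culture comparisons). Among single genes, 489 of 504 values kept their side of the threshold when 1 array was left out and 444 of 456 in the other fits. Many of these values were far from a call, and some fits left out an array outside the comparison. The shares therefore do not measure how firm the calls were. Of values called in either fit 0 turned direction, while some without a call, close to 0, changed sign. Leaving out 1 array, the number of the 7 genes called was 3 to 5 for aggregate, 3 to 4 for Matrigel, 2 to 2 for Matrigel against aggregate, 0 to 2 for the lines and 0 to 0 for each response. In 14B3 alone 2 were called for Matrigel (4 with both lines) and 1 for Matrigel against aggregate (2 with both). With the mean of all probe sets 0 were called between lines, against 1. The replicate block within lines gave 5 genes in each comparison with basal culture through Hbegf, and changed no other call of the 7 genes over both lines or all cultures. The calls it changed inside 1 line or 1 culture, of Met and Hbegf, stand beside the results.

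Over all genes the block within lines called 1119 between lines (745 without it), 118 for the aggregate response (58) and 165 for the Matrigel response (85). The shared block called 5146 for Matrigel against aggregate (3307), 1245, 118 and 186. Every probe set gave 9134 for aggregate (5735), 5397 for Matrigel (3519) and 5093 for Matrigel against aggregate, of 20380. Genes above the median gave 479, 19 and 37 of 6196 for line and responses. In 9A1 alone 2146 were called for Matrigel and 1869 against aggregates; in 14B3 alone 3813 for aggregate, 1791 and 1406. Without basal_14B3 replicate 2 the lines differed in 494, and leaving out 1 array gave 23 to 98 for the aggregate and 30 at the lowest for the Matrigel response. Signal within the low range limits Met, Ereg, Tgfa, the dim Egfr probe sets, the second Erbb3 probe set, basal Erbb3 and Erbb2, and Erbb2 in the 9A1 Matrigel arrays. It also limits both Hbegf probe sets in part, mostly in 14B3.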
